A study of Rattus norvegicus and Mus musculus with 17 samples.

Results

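Clotting factors, fibrinolysis proteins and complement components are plasma proteins made largely by hepatocytes, and 35 gene symbols of these systems were followed here in liver tumours and in regenerating liver. The members were the rows of 3 deposited tables whose symbol, without regard to case, was on this list, and 31 of the 35 had a row in at least 1 table, among 11532 genes listed in any table. Of these, 18 were among the 4649 genes listed for DEN mouse liver, 26 among the 9082 listed for the rat Morris hepatoma and 6 among the 2093 listed for regenerating rat liver. The symbols F5, C4bpa, C5 and Hc (the mouse symbol of the C5 gene) were in none of the tables. No row has a deposited p-value above 0.05, so a gene without a row has no value here, and listed members had been selected for a difference between their groups. Each count of members is therefore set beside the same count over all genes tested.

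The mice were male C57BL/6 animals given 50 mg/kg of diethylnitrosamine (DEN), a liver carcinogen, at 14 days of age, and 2 mg/kg of TCPOBOP, a compound that promotes liver growth, 30 days after that. Liver was taken at 5 months as tissue in which no tumours had yet formed (n = 3) and at 8 months as tissue with tumours (n = 3), so age and tumours cannot be told apart and both groups carry the same 2 treatments. The rats were male ACI animals. MH3924a, a transplantable Morris hepatoma cell line, was injected into the liver at 10 weeks of age and the tumours were collected after 2 weeks (n = 4). Regenerating liver was collected 24 hours after a partial hepatectomy at 10 to 12 weeks of age (n = 4). Liver of untreated, age-matched rats (n = 3) was the control of both rat groups, and no sham operation is named. All libraries came from whole tissue, in which fewer cells of a type and less RNA per cell cannot be told apart. Nothing in the labels ties each library to its own animal, and the p-values measure only the spread among libraries.

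The clotting cascade is a chain of proteases that ends in fibrin: the contact proteins factor XII, plasma kallikrein and high molecular weight kininogen start it on surfaces, and the vitamin K-dependent factors carry it on to thrombin. Complement is another protease network, entered by C1q-bound C1r and C1s, by mannose-binding lectins with their MASP proteases, or by C3 itself with factors B and D, and it ends in the pore built from C5b to C9. Both networks are known products of the liver and part of the acute phase response, and the loss of their transcripts is a known trait of poorly differentiated hepatocellular carcinoma.

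The values are RPKM, read counts scaled to transcript length and library size. Fold changes are log2 ratios of RPKM + 1 with their standard error (SE), from limma with Benjamini-Hochberg adjusted p-values, and a gene is called where that p is under 0.05. This scale understates changes of genes near 1 RPKM. Relative depth, read from the steps of low values, ran from 0.943 to 1.215 of the first mouse library and from 1.016 to 1.182 of the first rat control. Within the rat controls, library 3 stood apart: for the 26 hepatoma-listed members the ratio of control 2 to control 1 was 0.916 to 1.14, and the ratio of control 3 to the mean of the other two was 0.270 to 1.89. Control 3 lay above both other controls in 10 members and below both in 12. Hepatoma libraries 1 and 2 also differed from libraries 3 and 4, as described with their values.

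The DEN comparison asked which genes differ between liver with tumours and liver before tumours. The clotting and complement genes moved both ways. Kininogen, factor XI, complement factor I and HGF activator rose in the liver with tumours, between 1.82-fold and 2.47-fold in mean RPKM. The pore components C6 and C8b fell furthest, 9.59-fold and 4.39-fold, and the contact protease plasma kallikrein and lectin protease MASP2 fell 2.44-fold and 2.10-fold. Of the 18 members, 4 rose, 9 fell and 5 did not pass the test. Over all 3684 genes tested in this comparison, 17.9% rose and 49.5% fell. The median log2 fold change was -0.85 over the members and -0.56 over all tested genes.

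**Figure D1:**
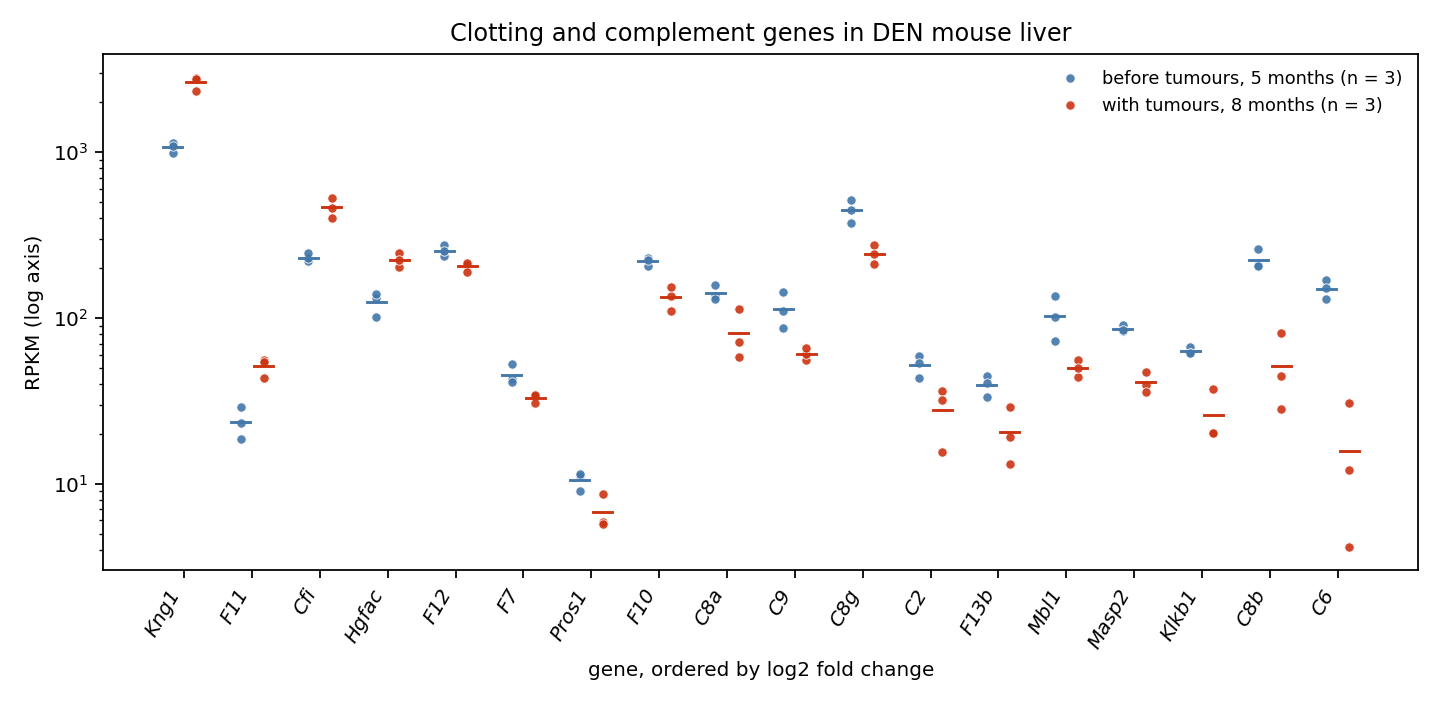
RPKM on a log axis of the 18 clotting and complement genes listed for DEN mouse liver, in 3 libraries before tumours (blue) and 3 with tumours (red). Points are libraries and bars are group means. Genes are ordered by log2 fold change, with Kng1 at the left (1073 to 2647 RPKM in mean) and C6 at the right (whose mean fell to 15.7 RPKM).

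Within the contact system, Kng1 (GeneID 16644), which encodes kininogen, the source of bradykinin and the carrier of kallikrein and factor XI, stood at 995, 1134 and 1088 RPKM before tumours and at 2355, 2821 and 2764 with tumours. All 3 later libraries were above all 3 earlier ones, with a log2 fold change of 1.3 ± 0.15 (SE, adjusted p = 0.0014). Kng2, a near-identical neighbour with which reads may be shared, rose as well, so the level of either copy alone is uncertain. F11 (GeneID 109821), the gene of factor XI, which activates factor IX, was at 18.6, 23.2 and 29.1 RPKM before and 56.1, 43.3 and 54.2 RPKM with tumours. Its groups were apart too, and it rose by a log2 fold change of 1.10 ± 0.19 (adjusted p = 0.0071). Klkb1 (GeneID 16621), which encodes plasma prekallikrein and is the neighbour of F11 in the mouse genome, went the other way. It had 66.4, 61.1 and 61.7 RPKM before tumours and 20.1, 37.3 and 20.1 RPKM with tumours, a fall of -1.31 ± 0.23 (adjusted p = 0.0085). F12, the gene of factor XII, had 274, 236 and 254 RPKM before and 210, 216 and 190 RPKM after (log2 fold change -0.31 ± 0.14, adjusted p = 0.37) and was not called. The 4 contact genes thus comprised 2 that rose, 1 that fell and 1 that did not pass. Over all genes tested 17.9% rose and 49.5% fell.

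The vitamin K-dependent proteins are modified by gamma-carboxylation before they can bind membranes. F10, the gene of factor X, which forms the prothrombin-cleaving complex, was at 206, 230 and 224 RPKM before tumours and at 136, 154 and 110 with them. It fell by a log2 fold change of -0.73 ± 0.16 (adjusted p = 0.023). F7, its genomic neighbour and the factor that pairs with tissue factor to start clotting, had 45.6 ± 6.03 RPKM (SD, n = 3) before and 32.8 ± 1.96 RPKM after and did not pass (log2 fold change -0.46, adjusted p = 0.092). Pros1, the gene of the anticoagulant protein S, had 11.2, 9.02 and 11.4 RPKM before and 5.89, 8.67 and 5.68 RPKM with tumours (-0.59 ± 0.18, adjusted p = 0.074). All 3 genes were lower in each library with tumours, and F10 was the only one of them called. F13b, which encodes the carrier subunit of the fibrin-crosslinking factor XIII, went from 44.8, 33.3 and 40.2 RPKM to 13.2, 29.0 and 19.0 RPKM. Its fall passed narrowly (-0.97 ± 0.26, adjusted p = 0.0499).

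Hgfac (GeneID 54426) encodes HGF activator, a protease related to factor XII that activates hepatocyte growth factor after injury. It was at 132, 140 and 101 RPKM before tumours and 248, 204 and 224 RPKM with tumours, with no overlap, and rose by a log2 fold change of 0.86 ± 0.17 (adjusted p = 0.014).

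On the complement side C6 and C8b had the largest falls, while the median log2 fold change was -0.86 over the 5 listed terminal components and -0.98 over the 3 listed classical and lectin members. C6 (GeneID 12274), which joins C5b to begin the pore, was at 169, 152 and 130 RPKM before tumours and at 4.16, 30.7 and 12.1 with tumours. The 3 later libraries differed widely among themselves and still lay below all earlier ones (log2 fold change -3.54 ± 0.60, adjusted p = 0.013). C8b (GeneID 110382), the beta chain of C8, which inserts into the membrane with the alpha chain, fell from 210, 206 and 259 to 44.7, 81.1 and 28.1 RPKM (-2.23 ± 0.34, adjusted p = 0.0056). Its neighbour C8a, the alpha chain, had 136, 129 and 158 RPKM before and 58.5, 113 and 71.9 RPKM after, and was just short of the threshold (-0.84 ± 0.24, adjusted p = 0.057). C8g, the gamma chain, a lipocalin, fell from 446, 516 and 377 to 276, 213 and 244 RPKM (-0.86 ± 0.18, adjusted p = 0.015). C8g overlaps Fbxw5 in the annotation, and whether strand was used in counting is not given, so reads of the pair may mix. C9, the subunit that polymerises into the ring of the pore, fell from 87.3, 110 and 143 to 56.0, 60.9 and 65.7 RPKM (-0.86 ± 0.19, adjusted p = 0.023). Of the 5 terminal components listed, 4 fell and C8a did not pass, where 49.5% of all genes tested fell.

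Of the 3 listed members of the classical and lectin pathways, 2 fell, where 49.5% of all genes tested fell. Masp2 (GeneID 17175), the protease that cleaves C4 and C2 after lectin binding, went from 90.1, 83.0 and 84.4 to 39.5, 47.3 and 35.8 RPKM (-1.06 ± 0.15, adjusted p = 0.0029). Masp2 overlaps Tardbp, with the same limit on strand. Mbl1, one of the mannose-binding lectins, went from 72.2, 101 and 135 to 44.3, 56.1 and 50.2 RPKM (-0.98 ± 0.23, adjusted p = 0.025). C2, the protease part of the classical and lectin C3 convertase, had 52.1 ± 7.91 RPKM (SD, n = 3) before and 27.9 ± 11 after and did not pass (-0.95, adjusted p = 0.094); it overlaps Zbtb12. The exception among complement members was Cfi (GeneID 12630), whose product, factor I, cleaves and inactivates C3b and C4b. It stood at 219, 229 and 245 RPKM before tumours and at 404, 464 and 533 with tumours. Every later library was above every earlier one, and Cfi rose by 1.00 ± 0.16 on the log2 scale (adjusted p = 0.0049). Of the 9 complement members listed, 1 rose, 6 fell and 2 did not pass, and of the 9 clotting members 3 rose, 3 fell and 3 did not pass. Over all genes tested 17.9% rose and 49.5% fell. No test was made between complement and clotting members, and the falls depended on scaling, as given below.

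The libraries of the 2 groups did not overlap in any of the 18 members, 4 being higher and 14 lower with tumours, but 24.9% and 75.1% of all tested genes showed the same, as all had been selected for a difference. Of the 14 members with lower means, 12 had their highest value with tumours in library 2. How many of all genes tested did so was not counted. Cyp2e1, a drug-metabolising enzyme of perivenous hepatocytes and 1 of 7 hepatocyte markers listed, had 3085, 3209 and 3110 RPKM before tumours and 60.9, 597 and 181 with tumours, with library 2 likewise the highest. Among the other hepatocyte markers, Alb, Apoa1 and Ahsg rose and 3 did not pass. Their summed level with Cyp2e1 was 47710 to 59780 RPKM before tumours and 141500 to 159500 with tumours. Of these other markers only Apoh had its highest value with tumours in library 2. Alb, Apoa1, Ahsg, Cps1 and Rbp4 had it in library 1. Of 4 macrophage markers tested, Lyz2 and Cd68 rose, while Timd4 and the Kupffer cell marker Clec4f (33.9 ± 5.05 to 9.29 ± 5.85 RPKM) fell, and the 5 listed summed to 77.1 to 99.2 RPKM before and 82.3 to 107 after. Of 5 endothelial markers tested, Emcn (2.89 to 9.62 RPKM), Pecam1 and Cdh5 rose, Tie1 fell and Tek was not called. Over all genes tested 17.9% rose and 49.5% fell. With library medians set equal and with quantile normalization, Clec4f, Timd4 and Tie1 were no longer called. The macrophage and endothelial rises were called in both. Acta2, of the stellate cell and fibroblast list, rose from 4.004 to 15.3 RPKM, Fabp4, of the adipocyte list, from 11.1 to 37.8 RPKM, Pf4, of the platelet list, from 1.33 to 2.39 RPKM and Sox9, of the cholangiocyte list, from 3.58 to 9.86 RPKM, each the only marker of its list that was tested. The part of hepatocyte zone or cell makeup in the members' changes was not tested. The 4 rises were called in every alternative that was run. The falls depended on scaling: with library medians set equal, C6, C8b, Klkb1 and Masp2 remained as 4 called falls (17.2% of all genes were then called lower and 24.8% higher), and with quantile normalization only C6 did (16% lower, 24% higher). Adjustment over the tested genes alone gave 13 falls, adding C2, C8a, F7 and Pros1 (71.9% of all genes lower).

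Around these members, other genes of the same systems were read from lists of the pathway. Of 10 other clotting and fibrinolysis genes tested, 4 rose and 2 fell, where 17.9% of all genes tested rose and 49.5% fell. With either scaling 6 rose and 0 fell. Plaur, the urokinase receptor, rose from 0.562 to 3.15 RPKM in mean (log2 fold change 1.40 ± 0.19, adjusted p = 0.0024), Kng2 from 106 to 231 RPKM (1.14 ± 0.19, adjusted p = 0.0063) and Serpinf2, the plasmin inhibitor, from 407 to 702 RPKM (0.79 ± 0.15, adjusted p = 0.010). Tfpi2, a protease inhibitor of the extracellular matrix, fell from 23.9 to 12.4 RPKM (-0.92 ± 0.19, adjusted p = 0.017). The other called genes, named after their values were seen, were Plau, which encodes urokinase (0.73 ± 0.18), and F3, which encodes tissue factor (-0.57 ± 0.13). Antithrombin (Serpinc1) was at 1271 ± 62.2 RPKM before and 842 ± 165 RPKM with tumours (SD, n = 3) and was not called.

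Of 6 other complement components tested, 5 fell and 0 rose, against the 49.5% of all genes that fell. The falls depended on scaling: with library medians set equal only Fcna was called, and with quantile normalization Fcna and Colec10. The 5 were led by the lectin pathway recognition proteins ficolin A (Fcna, 20.5 to 4.72 RPKM, -2.0 ± 0.37), collectin 10 (Colec10, 3.08 to 0.806 RPKM, -1.24 ± 0.24) and collectin 11 (Colec11, 17.3 to 9.52 RPKM, -0.85 ± 0.22), with C1ra (-0.84 ± 0.22) and, named after its values were seen, C4a (-0.77 ± 0.15). C1ra and C4a have near-identical copies in the mouse genome, so their own levels are uncertain. Complement regulators gave 2 falls among 5 tested, Cd59b (-0.91 ± 0.19) and Cfhr2 (-0.65 ± 0.16). With library medians set equal neither was called. With quantile normalization the value of Cfhr2 turned to 0.09, Cd59b was still called lower (-0.75) and the regulator Vtn was called higher (0.63). In that scaling 16% of all genes were called lower and 24% higher. Among hepatocyte transcription factors 3 of 4 tested fell, the bile acid receptor Nr1h4 from 70 to 17.5 RPKM (-1.96 ± 0.29, adjusted p = 0.0049), Cebpa from 111 to 62.0 RPKM (-0.83 ± 0.14, adjusted p = 0.0056) and Foxa1 from 7.54 to 4.27 RPKM (-0.68 ± 0.18, adjusted p = 0.044). The share of all genes that fell was 49.5%, and in both scalings only Nr1h4 of these was called. Vkorc1, the vitamin K reductase that clotting factor carboxylation needs, fell from 251 to 170.0 RPKM (-0.56 ± 0.14, adjusted p = 0.037), though its value turned to 0.17 with quantile normalization.

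The Morris comparison asked which genes differ between the transplanted tumour and normal rat liver. All 26 listed members were lower in every hepatoma library than in every control library, against 11.4% of all 8233 genes tested. The median log2 fold change of the members was -4.28, from -5.74 for Hrg to -1.23 for C1r, whereas the median over all tested genes was 1.58. The decrease was uneven across the tumours. Libraries 3 and 4 kept a median of 30.9% and 24.2% of the control level of the members, library 1 kept 1.23% and library 2 kept 0.0440%. With that spread, 6 members were called lower, 20 were not called and 0 were called higher, and over all tested genes 8.73% were called lower and 85.5% higher. An unadjusted p under 0.05 was found in 23 of the 26 members and in 8127 of all genes tested.

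**Figure D2:**
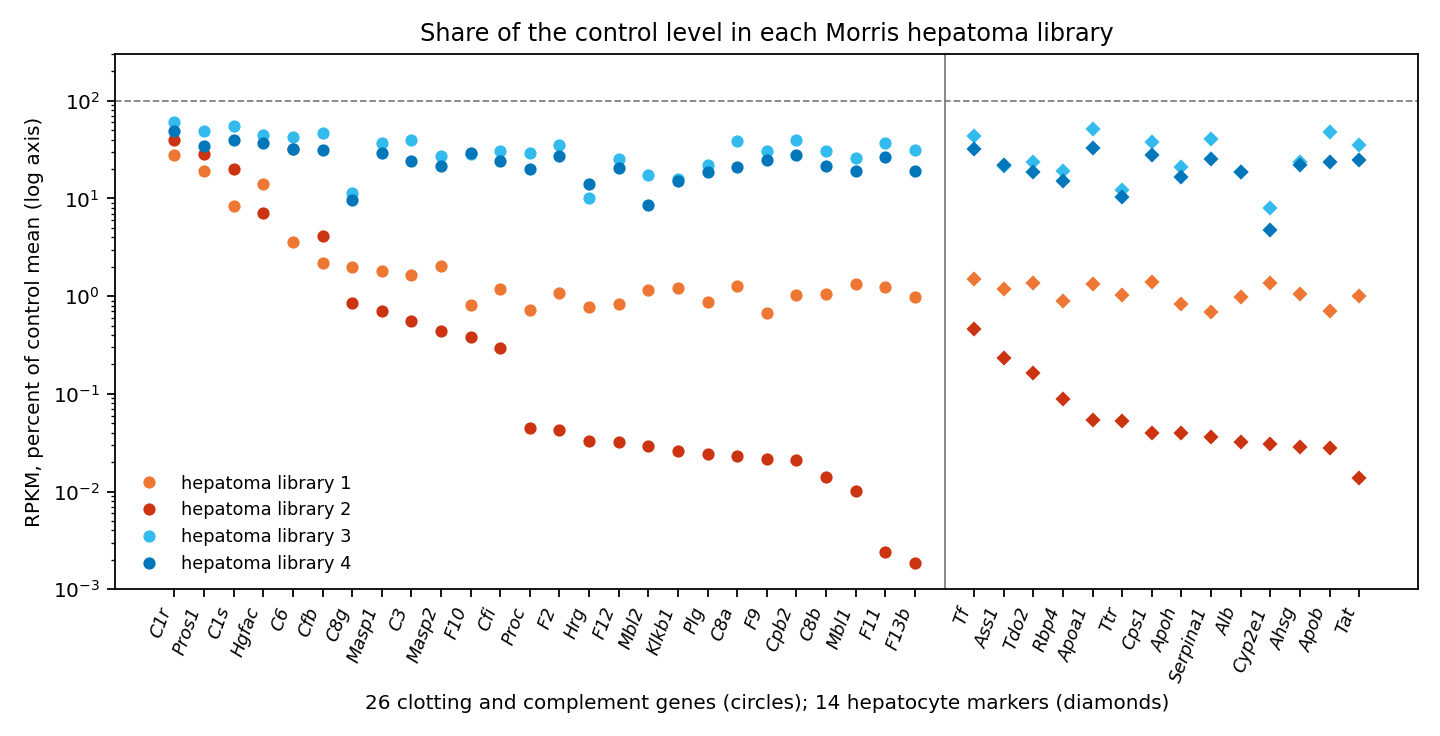
RPKM in each Morris hepatoma library as a percent of the mean of 3 control libraries, on a log axis, for 26 clotting and complement genes (circles) and 14 hepatocyte markers (diamonds). The dashed line is the control level of 100%. Libraries 3 and 4 lie between 4.75% and 60.4%. Libraries 1 and 2 are lower for most genes, and the members at the left, from C1r to C6, keep more in these libraries than the hepatocyte markers do.

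The split of the libraries was shared by hepatocyte markers that are no members. The 14 markers, among them albumin, transferrin and tyrosine aminotransferase, had medians of 1.03%, 0.0396%, 23.7% and 22.0% of control in libraries 1 to 4, and their summed level was 115000 to 143900 RPKM in controls and 118 to 32330 RPKM in tumours. None of the 14 was called in the main fit. With library medians set equal 5 were called lower, and with quantile normalization 0. How much of the members' level in each tumour library came from other hepatocytes in the tissue was not tested. Set against controls alone, libraries 1 and 2 gave 26 of 26 members called lower (11.3% of all genes, median of the members -6.28). Libraries 3 and 4 also gave 26 of 26 (8.66% of all genes, median of the members -1.82). With libraries 1 and 2 alone all 14 hepatocyte markers were called lower too. With libraries 3 and 4 alone all of them but Apoa1 were (adjusted p = 0.080 by limma). This division was chosen after the values were seen, and it leaves out the spread between the pairs of libraries.

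Among the vitamin K-dependent proteins, F2, the gene of prothrombin, had 1179 ± 194 RPKM in controls (SD, n = 3) and 12.6, 0.504, 414 and 324 RPKM in hepatoma libraries 1 to 4. F9, the gene of factor IX, whose lack causes haemophilia B, had 477, 458 and 439 RPKM in controls and 3.08, 0.0997, 141 and 112 RPKM in the hepatomas. F10 had 458, 451 and 499 RPKM in controls and 3.84, 1.81, 133 and 137 RPKM in hepatomas. In each of these, libraries 3 and 4 stood far above libraries 1 and 2, and none passed the test (log2 fold changes -4.84 ± 2.19, -4.81 ± 1.97 and -4.39 ± 1.70; adjusted p = 0.205, 0.152 and 0.128). Proc, the gene of protein C, which inactivates factors V and VIII, went from 235 ± 65.0 RPKM in controls to between 0.106 and 68.3 RPKM (-4.52, adjusted p = 0.11). Pros1, the gene of its cofactor protein S, behaved differently from these. It had 54.3, 61.0 and 49.5 RPKM in controls and 10.4, 15.6, 26.7 and 19.1 RPKM in hepatomas, a narrow spread, and fell by -1.63 ± 0.28 (adjusted p = 0.00084).

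The contact and fibrinolysis members were very low in libraries 1 and 2. Klkb1 had 90.8, 94.5 and 65.2 RPKM in controls and 1.01, 0.0217, 13.1 and 12.6 RPKM in hepatomas, and it was called lower (-4.23 ± 1.09, adjusted p = 0.030). F11 went from 40.2, 43.0 and 41.2 RPKM to 0.519, 15.2 and 11.1 RPKM in hepatoma libraries 1, 3 and 4 and was listed at 0.001 RPKM, the value read as no reads, in library 2. F13b was at the same floor in library 2, with 0.528, 16.6 and 10.2 RPKM in libraries 1, 3 and 4 against 44.8, 47.7 and 68.1 RPKM in controls. Neither passed the test (-3.35 ± 1.15 and -3.68 ± 1.17, adjusted p = 0.085 and 0.064). F12 had 309, 341 and 199 RPKM in controls and 2.37, 0.0899, 72.3 and 58.0 RPKM in hepatomas (-4.62 ± 1.71, adjusted p = 0.11). Plg, the gene of the fibrin-dissolving protease plasminogen, had means of 1241 ± 313 RPKM in controls and 128 ± 143 RPKM in hepatomas (SD, n = 3 and 4; -5.28, adjusted p = 0.14). Cpb2, the gene of the carboxypeptidase that protects fibrin (TAFI), had means of 618 ± 246 and 106 ± 123 RPKM (-4.60, adjusted p = 0.22). Hrg, which encodes histidine-rich glycoprotein, an abundant plasma protein that binds plasminogen and heparin, had means of 2188 ± 875 and 137 ± 153 RPKM (-5.74, adjusted p = 0.089). Hgfac kept more: 120.0, 115 and 157 RPKM in controls and 18.2, 9.34, 58.4 and 48.0 RPKM in hepatomas, called lower (-2.24 ± 0.63, adjusted p = 0.033).

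For the entry proteases of the classical pathway the pattern was again narrower. C1r (GeneID 312705) had 369, 401 and 335 RPKM in controls and 102, 147, 222 and 179 RPKM in hepatomas, which all lay below the controls, and fell by -1.23 ± 0.27 (adjusted p = 0.0047). C1s, its neighbour in the rat genome and its substrate in the C1 complex, had 206 ± 54.9 RPKM in controls and 17.2, 41.1, 114 and 81.3 RPKM in hepatomas (-1.96 ± 0.63, adjusted p = 0.056). In the lectin pathway, Mbl2, the other mannose-binding lectin, was called lower, with 133, 150.0 and 38.2 RPKM in controls and 1.249, 0.0313, 18.6 and 9.11 RPKM in hepatomas (-4.32 ± 1.20, adjusted p = 0.040). Its lowest control, library 3, still lay above its highest hepatoma library. Mbl1 had 217, 199 and 250 RPKM in controls and 2.97, 0.0223, 58.0 and 42.5 RPKM in hepatomas (-4.46 ± 1.58, adjusted p = 0.096). Masp2 had 182, 192 and 126 RPKM in controls and 3.35, 0.730, 45.6 and 35.9 RPKM in hepatomas (-3.95 ± 1.32, adjusted p = 0.078). Masp1, the lectin protease that activates Masp2, had means of 39.4 ± 2.16 and 6.75 ± 7.33 RPKM (-3.15, adjusted p = 0.079). These 3 were not called.

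C3, the central component that all pathways cleave, had 2287, 2614 and 3244 RPKM in controls and 44.5, 15.1, 1077 and 657 RPKM in hepatomas (-4.16 ± 1.66, adjusted p = 0.14). Cfb, the gene of factor B, the protease of the alternative convertase, had means of 580 ± 105 and 122 ± 126 RPKM (-3.17, adjusted p = 0.12). Cfi had 551, 506 and 509 RPKM in controls and 6.14, 1.54, 161 and 127 RPKM in hepatomas (-4.40 ± 1.68, adjusted p = 0.12). All 3 were far lower in libraries 1 and 2 than in libraries 3 and 4 and none was called. Of the terminal components, C8g was called lower, with 702, 679 and 200 RPKM in controls and 10.5, 4.45, 59.7 and 51.4 RPKM in hepatomas (-4.44 ± 1.06, adjusted p = 0.021). C8a had 186, 200 and 196 RPKM in controls and 2.44, 0.0452, 74.7 and 41.1 RPKM in hepatomas, and C8b had 237, 252 and 243 RPKM in controls and 2.55, 0.0342, 74.7 and 52.3 RPKM in hepatomas (-4.23 ± 1.65 and -4.47 ± 1.69; adjusted p = 0.13 and 0.12). The 2 neighbouring chains of C8 thus had nearly the same values library by library. C6 differed from them, with 60.8, 68.2 and 81.6 RPKM in controls and 2.50, 22.4, 30.0 and 22.7 RPKM in hepatomas: only library 1 was very low (-2.18 ± 0.80, adjusted p = 0.10).

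The members differed in their pattern across the tumours. In 21 of 26 the level in library 2 was under that in library 1, as it was in 14 of 14 hepatocyte markers. These 21 include Hgfac. How many of all genes tested had either order of the libraries was not counted. The 5 members higher in library 2 than in library 1 were Pros1, C1r, C1s, Cfb and C6. Using 10% of control as a dividing line set after the values were seen, 5 members kept at least that share in library 1 or 2: C1r kept 27.6% and 39.9%, Pros1 18.9% and 28.4%, C1s 8.35% and 20.0%, C6 3.56% and 31.9%, and Hgfac 13.9% and 7.16%. No hepatocyte marker kept more than 1.496% in library 1 or 0.463% in library 2. Nearest to the line on the other side was Cfb, with 2.16% and 4.10%. Of the 8 listed stellate cell and fibroblast markers, all but Postn were also higher in library 2 than in library 1. Postn had 46.1 RPKM in library 1 and 28.0 RPKM in library 2. Among these markers, the collagen gene Col1a1 had 135, 351, 164 and 218 RPKM in hepatoma libraries 1 to 4 and 0.471 to 2.78 RPKM in controls. All 8 listed stellate cell and fibroblast markers were called higher, as were 85.5% of all genes tested, and 5 were with library medians set equal and 6 with quantile normalization. Their summed level was 20.2 to 84.7 RPKM in controls and 517 to 1223 RPKM in hepatomas. The order of libraries 1 and 2 was not particular to this list. All 5 listed endothelial markers were higher in library 2 as well, such as Cdh5 with 30.9 and 42.9 RPKM. Of the 6 listed macrophage markers, Lyz2 and Cd163 were higher in library 2, and Cd68, Clec4f, Cd5l and Mrc1 were lower. Whether the remaining transcripts of C1r, Pros1, C1s, C6 and Hgfac came from tumour cells or other cells was not tested.

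The calls in the hepatoma comparison were sensitive to single libraries and to scaling. Without control library 1 or 2, only C1r and Pros1 were called lower, without control library 3 these and C8g, and without hepatoma library 3 the count rose to 13. Setting library medians equal, which moved the median of all genes from 1.58 to 0.10, gave 24 members called lower and 0 higher (26.7% and 31.3% of all genes), and quantile normalization gave 10 and 0 (22.8% and 30.5%). Adjustment over the tested genes alone gave 22 called lower (11.3% of all genes). In both scalings all 26 members kept their lower direction.

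**Figure D3:**
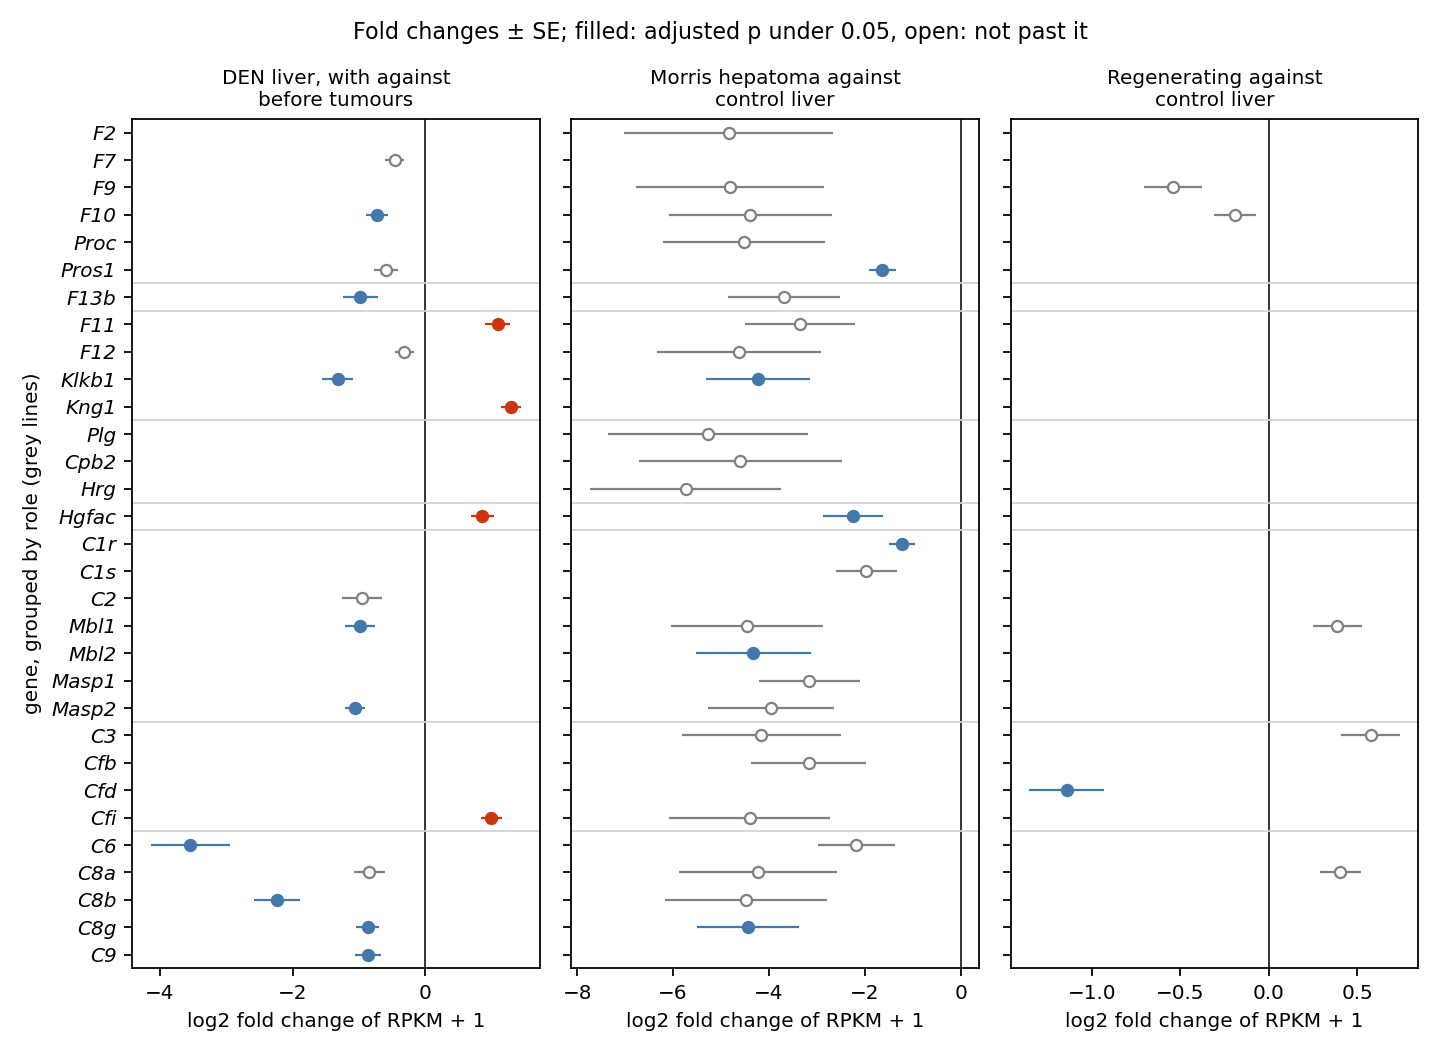
Log2 fold change of RPKM + 1 with its SE for every listed member, in the mouse tumours, the Morris hepatoma and regenerating liver, each against its reference group; grey lines divide the members by role and the scales of the 3 panels differ. Filled points passed an adjusted p of 0.05 (red higher, blue lower) and open points did not. In the DEN panel 4 members are filled red, and in the other panels none is.

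Since these genes were lower together in the hepatoma, the stretches before their transcription starts were read from RefSeq (rat GRCr8), where 26 of the 35 members, and 21 of the 27 with a row in a rat table, had a window. Motifs were searched on both strands in the 250 bases before each start. The C/EBP motif TTGCNNAA was found in 9 of the 26 member windows (C1r, C3, C4bpa, C6, C8a, C8b, F9, Klkb1 and Kng1). It was found in 9.22% of 33469 windows of all genes. Of these 9 members, C4bpa and Kng1 had no hepatoma values. The STAT motif TTCNNNGAA was found in 4 members and 7.67% of all. The HNF4 motif CAAAGTCCA and the TATA motif TATAAA were in none of the 26, and in 0.338% and 12.9% of all windows. A match is a string of letters and shows no binding. The stretches below are the 160 bases before the start, 5′ to 3′ on the strand of the gene, with the matched letters in capitals. They hold C/EBP letters and are shown because the genes differ in the hepatoma: F9 had 0.673% and 0.0218% of control in libraries 1 and 2, C3 had 1.64% and 0.554%, and C1r kept 27.6% and 39.9%. F9 also holds a STAT match, 103 to 95 bases before the start. The C/EBP motif thus stands before genes of both patterns, with differing letters at its open positions (N). In C1r it lies on the opposite strand, 83 to 76 bases before the start, so the capitals show its reverse complement.
F9, chrX:143388482-143388641, plus strand: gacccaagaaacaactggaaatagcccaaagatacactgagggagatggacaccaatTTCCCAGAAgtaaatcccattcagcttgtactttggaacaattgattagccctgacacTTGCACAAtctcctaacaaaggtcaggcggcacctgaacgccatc
C3, chr9:2201340-2201499, minus strand: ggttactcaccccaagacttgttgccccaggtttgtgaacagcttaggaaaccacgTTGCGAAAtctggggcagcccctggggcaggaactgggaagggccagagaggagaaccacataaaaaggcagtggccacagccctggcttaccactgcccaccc
C1r, chr4:159098853-159099012, plus strand: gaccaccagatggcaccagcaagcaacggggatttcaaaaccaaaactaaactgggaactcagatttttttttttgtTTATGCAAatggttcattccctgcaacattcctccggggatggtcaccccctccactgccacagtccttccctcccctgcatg

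Other clotting and fibrinolysis genes of the hepatoma table included receptors, inhibitors and plasminogen activators. Of 17 tested, 10 rose, 0 fell and 7 were not called, while 85.5% of all genes tested rose and 8.73% fell, so rises were no more frequent in the list than over all genes. Plaur, the urokinase receptor, rose from 0.557, 0.295 and 1.90 RPKM in controls to 385, 520, 342 and 376 RPKM in hepatomas (log2 fold change 7.80 ± 0.28, adjusted p = 2.56e-07). F2r, the thrombin receptor PAR1, rose from 1.46 to 138 RPKM in mean (5.82 ± 0.22, adjusted p = 2.7e-07), Procr, the endothelial protein C receptor, from 0.83 to 52.8 RPKM (5.03 ± 0.39, adjusted p = 1.2e-05) and F2rl1, the receptor PAR2, from 0.0187 to 30.2 RPKM (4.89 ± 0.22, adjusted p = 4.48e-07). The other 6 were F3, Plat, Plau, Tfpi, F13a1 and F8. F3, the gene of tissue factor, is singled out after its values were seen. It had 0.313, 0.145 and 0.188 RPKM in controls and 30.1, 37.7, 28.0 and 29.1 RPKM in hepatomas (4.72 ± 0.16, adjusted p = 1.84e-07). Its 4 hepatoma values lay within 28.0 to 37.7 RPKM, and libraries 1 and 2 were slightly above libraries 3 and 4, opposite to most members. F8 was low throughout (0.448 to 1.51 RPKM in mean, 0.79 ± 0.14), and its value turned to -0.07 and -0.59 when library medians were set equal and with quantile normalization. The other 9 were called higher in both scalings, in which 31.3% and 30.5% of all genes were. The 7 not called included the inhibitors antithrombin (Serpinc1, 2356 ± 116 RPKM in controls, and 24.4, 0.963, 603 and 479 RPKM in hepatomas) and plasmin inhibitor (Serpinf2, -4.65, adjusted p = 0.16). Antithrombin was far lower in libraries 1 and 2. All 7 were lower in every hepatoma library than in every control library, as were 11.4% of all genes tested. With library medians set equal, Habp2, Serpind1 and Serping1 were called lower (26.7% of all genes). With quantile normalization F8 was (22.8%).

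**Figure D4:**
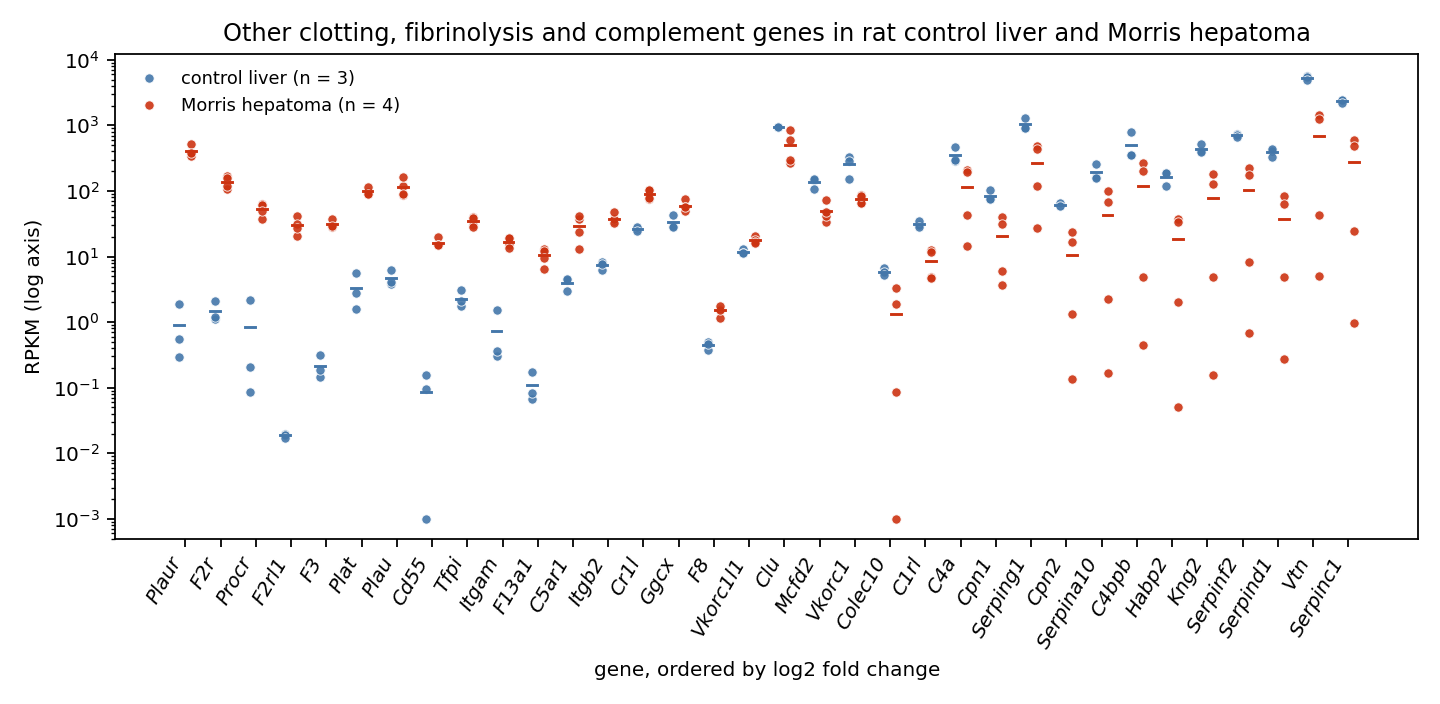
RPKM on a log axis of other clotting, fibrinolysis, complement and vitamin K cycle genes listed for the Morris hepatoma, in 3 control (blue) and 4 hepatoma libraries (red), ordered by log2 fold change, with group means as bars. The genes at the left, such as Plaur (0.916 to 406 RPKM in mean), have 4 close hepatoma values. The genes at the right, such as Serpinc1, spread from 0.963 to 603 RPKM.

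In the vitamin K cycle, the carboxylase Ggcx (33.6 to 59.7 RPKM, 0.82 ± 0.22) and Vkorc1l1 (11.9 to 17.8 RPKM, 0.54 ± 0.16) were called higher, and the reductase Vkorc1 (258 to 76.0 RPKM, -1.68 ± 0.29) and Mcfd2, a cargo receptor for factors V and VIII (135 to 49.0 RPKM, -1.48 ± 0.27), lower. Setting library medians equal turned Ggcx to -1.03 and Vkorc1l1 to -1.24, and quantile normalization turned them to -0.35 and -1.01, so their direction depends on scaling. The counts of called genes in the lists that follow stand against 85.5% of all genes tested called higher and 8.73% lower. Other complement components gave 2 falls among 6 tested, C1rl (31.0 to 8.48 RPKM, -1.87 ± 0.34, adjusted p = 0.0017) and Colec10 (5.91 to 1.33 RPKM, -1.84 ± 0.56, adjusted p = 0.046), and 5 fell with library medians set equal and 4 with quantile normalization. Of 4 regulators tested, 2 rose: Cd55, which breaks up C3 convertases on cell surfaces, from 0.0846 to 16.2 RPKM (3.98 ± 0.16, adjusted p = 3.43e-07), and Cr1l (26.4 to 89.6 RPKM, 1.71 ± 0.19), whose value turned to -0.14 when library medians were set equal. The regulators Vtn (5330 to 686.5 RPKM) and Clu (944 to 499 RPKM) were lower in every hepatoma library and were not called. In both scalings Clu was called lower, as were 26.7% and 22.8% of all genes. All 3 complement receptors tested rose, Itgam (0.728 to 16.8 RPKM, 3.42 ± 0.25), C5ar1 (4.0 to 29.1 RPKM, 2.48 ± 0.37) and Itgb2 (7.42 to 37.8 RPKM, 2.20 ± 0.19), which are carried by leukocytes. With library medians set equal only Itgam remained called (C5ar1 0.80, adjusted p = 0.28; Itgb2 0.43, adjusted p = 0.21), and with quantile normalization Itgam and Itgb2. Beside them 4 of 6 macrophage markers rose, Lyz2, Cd68, Mrc1 and Cd163, and Clec4f fell, with a summed level of 165 to 206 RPKM in controls and 765 to 1368 RPKM in hepatomas, and their part in the receptor values was not tested. Setting library medians equal turned Cd68 to -0.19, Mrc1 to -0.27 and Cd163 to -0.73, and quantile normalization turned Mrc1 to -0.17 and Cd163 to -0.62, while Lyz2 was called higher in both.

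Of 5 hepatocyte transcription factors tested, 1 was called lower, Nr1h4 (31.3 to 4.72 RPKM, -2.81 ± 0.77, adjusted p = 0.035), and Foxa1, Foxa3, Nr5a2 and Prox1 were not called (adjusted p = 0.057 to 0.129). In both scalings all 5 were called lower, as were 26.7% and 22.8% of all genes. Hnf4a, listed at 0.873, 1.68 and 1.06 RPKM in controls and 0.0254, 0.001, 0.574 and 0.396 RPKM in hepatomas, was too low to be tested. Socs3, a target of IL-6, had 22.2, 45.2, 47.4 and 57.9 RPKM in hepatomas and was called higher (3.74 ± 0.75, adjusted p = 0.0086), with 0.790, 0.637 and 9.42 RPKM in controls, where library 3 was again apart. Its call was lost in both scalings (adjusted p = 0.18 with library medians set equal, 0.16 with quantile normalization).

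Between the mouse and the rat tumours, 14 members were listed in both tables. Of these, 11 had lower means in both: F10, F12, F13b, Pros1, Klkb1, Mbl1, Masp2, C6, C8a, C8b and C8g. F11, Cfi and Hgfac rose in the DEN liver and were lower in every hepatoma library. No test was made of the difference between the models, which differ in species, age and tumour type. Of 7 hepatocyte markers tested in the DEN tissue, 3 rose, such as Alb from 24700 ± 3706 to 83080 ± 3711 RPKM (SD, n = 3). Quantile normalization left no difference in Alb, as it does for a gene that ranks the same in every library. It therefore cannot test that rise. Cyp2e1 fell 11.2-fold, and Cps1, Rbp4 and Apoh had lower means without being called. The direction of Rbp4 and Apoh depended on scaling. With quantile normalization both were called higher (0.65 and 0.80), as were 24% of all genes tested. The hepatoma held the 14 listed there at medians of 0.0396% to 23.7% of control, with up to 51.5% for Apoa1 in library 3.

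In regenerating liver the question was which genes differ from control liver 24 hours after hepatectomy. Of the clotting and complement genes 6 of 35 were listed, and their means differed by at most 2.39-fold. In all, 2093 genes were listed, where the rat annotation holds 23154 protein-coding genes. Factor D fell, and C3, C8a and Mbl1 had higher means and F9 and F10 lower means without passing the test. Of the 6 members, 1 was called lower and 0 higher by limma, against 0.763% and 21.2% of all 1703 genes tested. By unadjusted p under 0.05, 5 of the 6 members and 1633 of the genes passed. No library of one group overlapped the other in any of the 6, 3 being higher and 3 lower, against 89.4% and 3.58% of all tested genes. The median log2 fold change was 0.10 over the members and 0.53 over all tested genes.

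**Figure D5:**
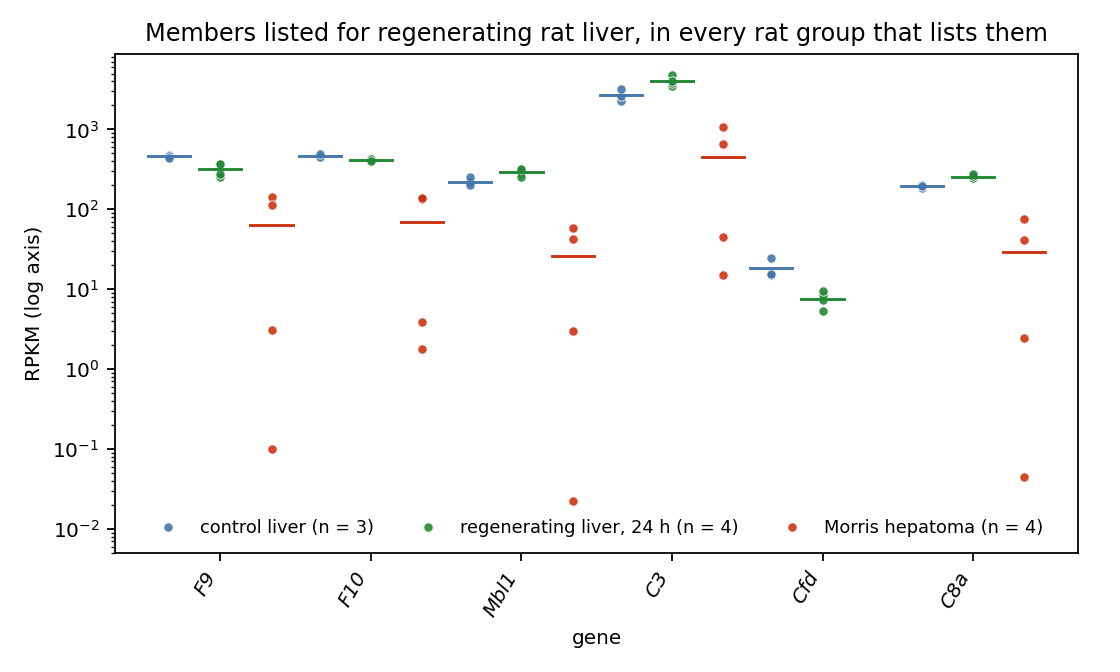
RPKM on a log axis of the 6 members listed for regenerating rat liver, in 3 control (blue) and 4 regenerating libraries (green), with 4 Morris hepatoma libraries (red) where that table lists the gene. Bars are group means. Control and regenerating values lie close together, from 5.36 to 24.4 RPKM for Cfd and 2287 to 4732 RPKM for C3. The hepatoma values of the other 5 genes lie lower and far apart, such as 15.1 to 1077 RPKM for C3.

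Cfd (GeneID 54249), the gene of factor D or adipsin, the protease that cleaves factor B and a known product of fat cells, had 14.9, 15.4 and 24.4 RPKM in controls and 7.29, 8.53, 9.40 and 5.36 RPKM in regenerating liver. The highest regenerating value was below the lowest control (log2 fold change -1.14 ± 0.21, adjusted p = 0.033). No adipocyte marker of the list had a row in this table. The call is fragile: it was lost with quantile normalization (2.7% of all genes called lower), with replicate blocks and when any library other than regenerating library 3 was left out. Setting library medians equal gave 3 members called lower, Cfd, F9 and F10, and 0 higher (3.17% and 1.53% of all genes). Adjustment over the tested genes alone called Cfd and F9 lower and C3, C8a and Mbl1 higher (3.82% and 91.7% of all genes).

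C3 had 2287, 2614 and 3244 RPKM in controls and 4732, 3531, 3798 and 4040 RPKM in regenerating liver (0.57 ± 0.17, adjusted p = 0.15), and was called higher only without control library 3. C8a had 186, 200 and 196 RPKM in controls and 246, 244 and 258 RPKM in regenerating libraries 1 to 3, with 280 RPKM in library 4 (0.41 ± 0.12, adjusted p = 0.15). Mbl1 had 217, 199 and 250 RPKM in controls and 281, 310, 254 and 316 RPKM in regenerating liver (0.39 ± 0.14, adjusted p = 0.31). The direction of these 3 depended on scaling: with library medians set equal their values were -0.15, -0.32 and -0.34. F9 had 477, 458 and 439 RPKM in controls and 253, 373, 370 and 280 RPKM in regenerating liver (-0.54 ± 0.16, adjusted p = 0.18). F10 had 458, 451 and 499 RPKM in controls and 424, 397, 420 and 402 RPKM in regenerating liver (-0.19 ± 0.12, adjusted p = 1). Of the surrounding lists, 1 other complement gene was listed, Cpn2, the regulatory subunit of the carboxypeptidase that inactivates anaphylatoxins, at 61.3 ± 3.19 RPKM in controls and 84.3 ± 2.92 RPKM in regenerating liver (0.45 ± 0.11, adjusted p = 0.086). Socs3 was at 22.8, 18.7, 12.97 and 9.16 RPKM in regenerating liver, of which the lowest was under control library 3 at 9.42 RPKM, and was not called (adjusted p = 0.13).

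The members C3, C8a, Mbl1, F9 and F10 had rows in both rat tables and could be set side by side in the hepatoma and in regenerating liver. Each was lower in all 4 hepatoma libraries than in all 4 regenerating ones, as were 5.92% of all genes tested. The mean of C3 was 448 RPKM in hepatomas and 4025 RPKM in regenerating liver (log2 difference -4.73 ± 1.45, adjusted p = 0.25), and the differences of the others were -4.64 for C8a, -4.84 for Mbl1, -4.27 for F9 and -4.20 for F10. None of the 5 was called by limma (adjusted p = 0.19 to 0.70, unadjusted p under 0.05 in all 5), and over the 1673 genes tested 4% were called lower and 80.8% higher. With hepatoma libraries 1 and 2 alone all 5 were called lower (6.12% of all genes), and with libraries 3 and 4 alone all 5 as well (5.52%). That division was chosen after the values were seen. It leaves out the spread between the pairs of libraries, so these calls add no support to the main fit. Adjustment over the tested genes alone called 4, all but F9 (5.86%). Both rat comparisons share the 3 control libraries.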

How the data were processed

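RNA of 17 whole-tissue libraries was sequenced. The authors deposited 3 tables with a value per library, read here as RPKM, since the headers name no unit. Per the file headers they also hold a log2 ratio and a p-value. The log2 ratio equalled the recomputed one within 0.01 in all listed genes, and the deposited p-value equalled an unadjusted equal-variance comparison within 1%, although its header names a Holm correction. Aligner, build and counting are not given in the sources used here. From the RPKM, log2(RPKM + 1) was tested with limma 3.58.1 (trend, robust, two-sided) in R 4.3.3, after removing genes that reached 1 RPKM in fewer libraries than the smaller group holds. Benjamini-Hochberg adjustment counted 21951 mouse (GENCODE M21) or 23154 rat (RefSeq GRCr8) protein-coding genes, because the tables are preselected; adjusted p-values may still be too small. The procedure was run on simulated data in which both groups had the spread of the reference libraries. The wider spread among the hepatoma libraries was not covered, and no outcome is given here. Python 3.11.15, pandas 2.3.3, numpy 2.4.6, scipy 1.17.1 and matplotlib 3.10.9 did the rest. The members, the pathway and marker lists and the tests were chosen with earlier results of these data known. Named were all listed members and, per pathway list and comparison, the 4 called genes with the largest change; some genes of these lists are not reported here. No counting intervals are given, since depth was known only between libraries. Alternatives were other pseudocounts, filters, scalings, limma settings, adjustment over the tested genes alone, replicate blocks, all 3 rat groups in 1 fit and each library left out.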

Additional observations from a re-analysis of the deposited data

Results flagged for a closer look

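In the Morris hepatomas, C6 had 1 library far from the others: on the log2 scale of RPKM + 1, library 1 (2.50 RPKM) was separated from the nearest of the other 3 (22.4, 22.7 and 30.0 RPKM) by 0.87 of the whole range of the group. A gap of that relative size turns up by chance in about 1 of 20 groups, and 32 groups of 4 libraries were looked at.

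For 3 members the models moved in opposite directions. Cfi had a log2 fold change of 1.0 in DEN liver with tumours, higher in 3 of 3 libraries, and of -4.4 in Morris hepatoma, lower in 4 of 4. F11 had 1.1 and -3.35 and Hgfac 0.86 and -2.24, with the same separation of libraries. The difference between the models was not tested.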

How the results depend on the processing

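The counts of called members depended on scaling, adjustment and single libraries, and the cause was not tested unless named. DEN falls numbered 9, and 4 with library medians set equal, 1 with quantile normalization, 13 with adjustment over the tested genes alone and 4 to 12 with 1 library left out (4 without library 2 before tumours, 5 without library 3 before or library 1 or 3 with tumours). Hepatoma falls numbered 6, and 17 with a pseudocount of 5, 24 with medians set equal, 10 with quantile normalization, 21 without trend and robust settings, 22 with adjustment over the tested genes alone, 26 with hepatoma libraries 1 and 2 or 3 and 4 alone (added after seeing the data), 0 with all 3 rat groups in 1 fit, and 2 to 13 with 1 library left out. Regenerating falls numbered 1, and 3 with medians set equal, 0 with quantile normalization, 2 over the tested genes alone, 0 with all rat groups in 1 fit, and 0 to 1 with 1 library left out; rises numbered 0, and 3 over the tested genes alone and 0 to 1 with 1 library left out. The fit of all rat groups holds only the 5 members of both rat tables, none of them called in either comparison, so the called members could not appear in it. Hepatoma against regenerating liver gave 0 falls, 3 without trend and robust settings and 4 over the tested genes alone. It gave 5 with either pair of hepatoma libraries (added after seeing the data). Adjustment over the tested genes ignores that they were preselected.

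Signs turned for F12 in DEN liver (0.13 with medians set equal, 0.47 with quantile normalization), F10 (0.044) and F7 (0.17, both with quantile normalization), and in regenerating liver for C3 (-0.15), C8a (-0.32) and Mbl1 (-0.34) with medians set equal. The scalings moved the median of all tested genes from -0.56 to -0.19 and -0.16 in DEN liver, from 1.58 to 0.10 and 0.11 in hepatoma and from 0.53 to -0.07 and -0.07 in regenerating liver.

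Replicate numbers do not pair the libraries: deviations of same-numbered libraries correlated between -0.32 and 0.15. A replicate block gave 8 falls in DEN liver, 4 in hepatoma and 0 in regenerating liver, where the call of Cfd was lost. Absolute depth is unknown, so values near 0.001 RPKM cannot be told from none.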
